A study of Homo sapiens with 4 samples.

Results

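The receptors of the interferons, the kinases bound to them and the factors that carry the signal to the nucleus were examined in untreated keratinocytes. The 9 genes were taken by symbol, by a rule that sets no limit on their levels. They were the receptor chains IFNAR1, IFNAR2, IFNGR1 and IFNGR2, the kinases JAK1 and TYK2, and the transcription factors STAT2, IRF9 and IRF7. All 9 were found among the 44591 rows of each file, of which 19233 were labelled protein-coding. RNA-seq had been performed on 4 replicates of HaCaT, an immortalized human keratinocyte line that grows without end in culture and so stands only in part for normal epidermis. The labels describe total RNA from cells without any treatment, kept at 37 °C and 5% CO2 in medium with 12% fetal bovine serum, while the methods of the study give a different share of serum. There was 1 condition and no control group, so the levels of the genes and their spread over replicates could be described, but no response to a treatment could be. The labels number the replicates without saying whether they came from separate cultures, and the study calls them biological repeats.

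Type I interferons bind a receptor made of the IFNAR1 and IFNAR2 chains, to which the kinases TYK2 and JAK1 are attached. These kinases phosphorylate STAT proteins, among them STAT2, which acts with IRF9 in a complex known as ISGF3 that binds the interferon-stimulated response element (ISRE) of antiviral genes. Type II interferon binds IFNGR1 and IFNGR2 and acts mainly through the gamma-activated site (GAS) of its target genes. IRF7 is a factor that drives the transcription of interferon genes, and it is itself a well-known interferon target. Keratinocytes respond to each class, including the type III (lambda) interferons, which share JAK1, TYK2 and ISGF3 with type I.

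The 250 bases before the transcription start were available for 7 of the 9 genes, with 11 starts in all, from RefSeq on GRCh38.p14. IFNAR2 and IRF7 had no entry. The ISRE core, searched on both strands as GAAA, any 2 bases and GAAA, matched in 0 of the 11, and in 3.02% of all 35116 promoters of the same length. The GAS pattern, TTC, any 3 bases and GAA, which reads as itself on the other strand, matched in 1 of the 11, that of IRF9, and in 6.57% of all promoters. The match is TTCTGGGAA, from base 63 to base 55 before the start, and it does not overlap an ISRE core. The promoter of IRF9 is shown because it holds this match and because IRF9 differed widely between replicates, and that of STAT2, its partner in ISGF3, is shown for comparison. Capitals mark the GAS match. IRF9 lies at chr14:24161015-24161264 on the plus strand and STAT2 at chr12:56360108-56360357 on the minus strand, both written 5′ to 3′.
IRF9: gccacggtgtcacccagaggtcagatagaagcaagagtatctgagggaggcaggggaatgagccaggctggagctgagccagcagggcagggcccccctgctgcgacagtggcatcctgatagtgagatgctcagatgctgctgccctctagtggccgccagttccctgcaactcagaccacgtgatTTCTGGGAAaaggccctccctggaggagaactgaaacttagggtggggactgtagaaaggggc
STAT2: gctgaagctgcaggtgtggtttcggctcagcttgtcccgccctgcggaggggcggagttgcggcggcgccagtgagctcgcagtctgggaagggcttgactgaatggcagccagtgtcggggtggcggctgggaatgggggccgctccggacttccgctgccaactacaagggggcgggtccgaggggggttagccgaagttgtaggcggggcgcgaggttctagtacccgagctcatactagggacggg
A match to these letters is a description of the sequence and not a measured binding site.

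Levels are given as TPM, that is, reads per kilobase of the deposited gene length scaled to a sum of 1000000 over protein-coding genes in each replicate, so that genes of unequal length can be compared. The total count was between 17056035 and 19745170 in replicates 2 to 4 and 73082279 in replicate 1. Protein-coding genes took 76.1% of the counts of replicate 1 and between 95.3% and 96.4% of those of the others. A protein-coding gene was called detected at a mean TPM above 1, which 12165 genes reached. Replicate 1 was less like the rest, with a Spearman correlation over these genes of 0.754 to 0.780 to any other library, against 0.944 to 0.967 for pairs without it. GC-rich genes were lower in replicate 1 (Spearman correlation across genes of GC content with the deviation from the gene's mean, -0.51), and long genes were lower in replicate 3 (-0.42). These correlations describe genes within libraries, and genes are not independent replicates. Results are therefore given with and without replicate 1. All 14 keratinocyte markers were detected, at a summed TPM of 14923 to 21947. A range of 2 or more on the log2(TPM + 1) scale was found in 6 of them (18.3% of all detected genes). Without replicate 1 it was found in 0 (1.73%). KRT14, a basal keratin and the highest of them, was at 6824, 7642, 6547 and 6375 TPM in replicates 1 to 4. Other markers moved more, and the median TPM of the 14 was 623, 493, 228 and 474. Compared with replicate 1, PERP was 4.40-fold lower and ITGB4 4.31-fold higher in replicate 2. Of 21 leukocyte markers, 6 had no count in any replicate and only CD14 was detected. Their summed TPM lay between 4.47 and 11.4, and the pan-leukocyte gene PTPRC had 3 counts in replicate 1 and 0 in the others. Summed TPM was between 5.20 and 9.60 for 7 fibroblast markers (2 detected, both with a range of 2 or more), 0.956 and 2.36 for 4 endothelial markers, and 3.74 and 9.12 for 5 melanocyte markers. In these bulk samples, fewer cells that express a gene and less RNA of it per cell cannot be told apart.

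All 9 genes were detected in every replicate, but they did not vary alike. The receptor chains and kinases stayed within 4-fold in TPM over the 4 replicates, while the factors IRF9 and IRF7 did not, although IFNAR2 and TYK2 passed 4-fold when TPM was computed over all rows of the files. The summed TPM of the 4 receptor chains was 230, 192, 140 and 162 in replicates 1 to 4. That of the 2 kinases was 88.9, 82.9, 56.9 and 106. The sum of the 3 factors was 172, 601, 609 and 102, so the factors made up most of the transcripts of the 9 genes in replicates 2 and 3 but not in replicates 1 and 4. Values for each gene are shown in the plot of TPM by replicate.

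**Figure D1:**
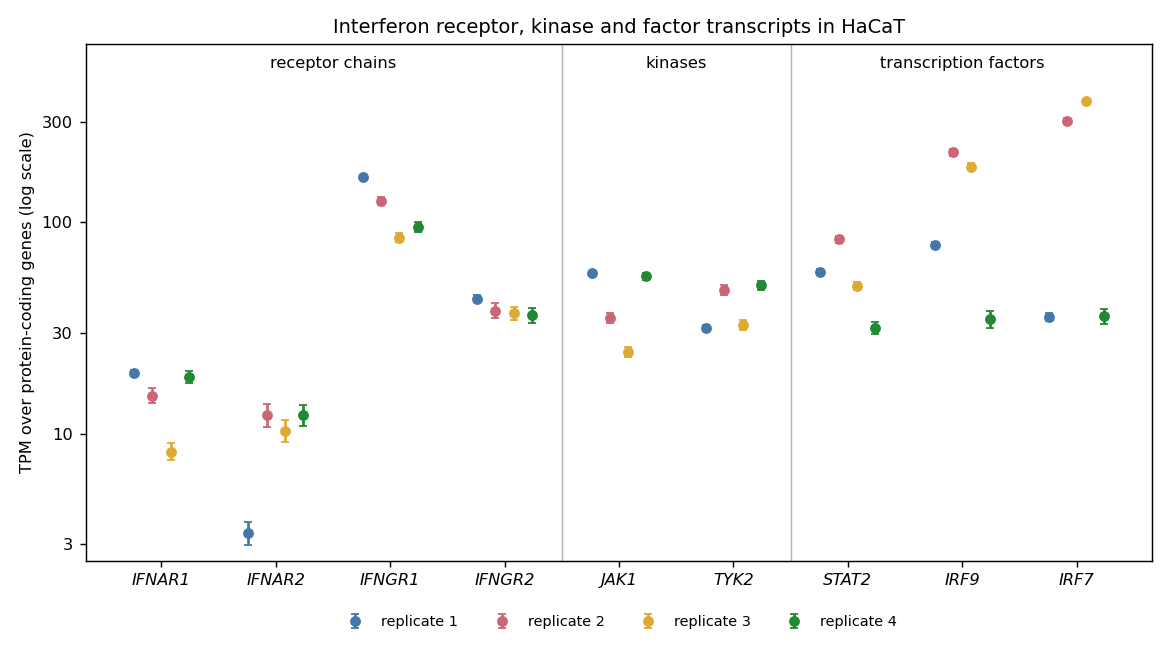
TPM over protein-coding genes (log axis) of the 9 genes in each of the 4 HaCaT replicates, with bars for the exact 95% Poisson interval of the count. The points of IFNGR2 lie between 36.4 and 43.6, while those of IRF7 split into 35.6 and 35.9 in replicates 1 and 4 and 302 and 376 in replicates 2 and 3.

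Among the receptors, IFNGR1, the chain that binds type II interferon, was the highest. IFNGR1 (chromosome 6, 137518621 to 137540567, hg19 as for all gene positions here) was at 164, 126, 84.7 and 95.2 TPM over replicates 1 to 4, with a mean of 117 ± 35.6 (SD, n = 4). It was above 88.2% of detected genes. Its signalling partner IFNGR2 (chromosome 21, 34775202 to 34809828) was at 43.6, 38.2, 37.2 and 36.4 TPM, a mean of 38.8 ± 3.26 (SD, n = 4). The range of IFNGR2, the highest minus the lowest replicate on the log2(TPM + 1) scale, was 0.26, and only 1.82% of detected genes had a smaller one. Without replicate 1 it was 0.07, while it reached 0.83 after values were centred within bins of GC content and 1.27 with TPM over all rows of the files. The range of IFNGR1 was 0.95, and it was 0.46 after values were centred within bins of GC content. IFNGR2 shares 5036 bp with TMEM50B on the opposite strand, which had 1008, 91, 174 and 179 counts in replicates 1 to 4, against 2413, 579, 761 and 617 for IFNGR2. Whether strand was used in counting is not given in the sources used here, so reads of the shared stretch cannot be assigned.

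Per kilobase, the type I receptor was lower. IFNAR1 (chromosome 21, 34697214 to 34732129), the chain that carries TYK2, was at 19.4, 15.1, 8.20 and 18.6 TPM, a mean of 15.3 ± 5.09 (SD, n = 4). Replicate 3 was the low one, and the range of 1.15 was 0.34 without it. IFNAR2 (chromosome 21, 34602200 to 34636818), the chain with the stronger hold on the interferon, was at 3.37, 12.2, 10.3 and 12.2 TPM, a mean of 9.52 ± 4.20 (SD, n = 4). Here replicate 1 stood apart below the others, and the range of 1.60 was 0.23 without it. IFNAR2 had 259, 257, 293 and 287 counts, and the 95% interval of replicate 1 was 2.97 to 3.81 TPM. A gene of this length would have been at 0.0390 TPM in replicate 1 and 0.143 TPM in replicate 2 with 3 counts, the number treated as the limit of detection. Since reads carry no molecular identifiers, all intervals cover counting error only.

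The kinases had a similar mean TPM, although which of them was higher changed between replicates. JAK1 (chromosome 1, 65298906 to 65533429), which serves all 3 interferon receptor classes, was at 57.3, 35.2, 24.3 and 55.6 TPM, a mean of 43.1 ± 16.1 (SD, n = 4). Its lowest value, like that of IFNAR1, was in replicate 3. The deposited lengths of IFNAR1 and JAK1 are 6095 and 5576 bp, against a median of 3276 bp over detected genes, and their ranges were 0.66 and 0.82 once values were centred within bins of length (chosen after seeing the data) and 0.71 and 0.96 within bins of GC content, against 1.15 and 1.21 before. The part of length and of GC content in these low values was not tested further. TYK2 (chromosome 19, 10461204 to 10491248), used by the type I and type III receptors, was at 31.6, 47.7, 32.6 and 50.4 TPM, a mean of 40.6 ± 9.85 (SD, n = 4). Its range was 0.66 (0.35 within bins of GC content), and its lowest values were in replicates 1 and 3. JAK1 shares 10 bp with RAVER2 on the opposite strand, and the other genes lying over JAK1 had at most 7 counts.

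Of these ISGF3 components, IRF9 varied more than STAT2. STAT2 (chromosome 12, 56735381 to 56754037), which brings the activation domain to ISGF3, was at 58.4, 83.3, 50.2 and 31.6 TPM, a mean of 55.9 ± 21.5 (SD, n = 4). It was highest in replicate 2 and lowest in replicate 4, and the range of 1.37 was 0.72 without replicate 4. IRF9 (chromosome 14, 24630422 to 24635774), the DNA-binding part of ISGF3, was at 78.2, 215, 183 and 34.7 TPM, a mean of 128 ± 85.2 (SD, n = 4). The highest replicate exceeded the lowest 6.19-fold (95% Clopper-Pearson interval 5.59 to 6.87). The range of IRF9 was 2.60 over 4 replicates and also without replicate 1, and it was 1.45 without replicate 4.

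IRF7 (chromosome 11, 612555 to 615999) was the most variable of the 9 genes. It was at 35.6, 302, 376 and 35.9 TPM over replicates 1 to 4, with a mean of 187 ± 178 (SD, n = 4). Replicates 2 and 3 lay far above replicates 1 and 4, with nothing in between, and the highest exceeded the lowest 10.5-fold (95% interval 10.02 to 11.1). On the log2 scale the range was 3.36, larger than in 95.9% of detected genes, and it stayed between 3.05 and 3.36 when each replicate was left out in turn. The transcript of IRF7 is rich in GC (66.8%, against a median of 49.1% over detected genes). Centring within bins of GC content gave a range of 3.60, and leaving out replicate 1 gave 3.35.

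The authors deposited RPKM beside the counts for replicates 1 and 2 and TPM for replicates 3 and 4. TPM was computed here from the counts and the same lengths in each replicate, so the deposited unit did not enter the values below. Whether replicates with the same unit were prepared alike is not given in the sources used here. The difference in IRF7 was present within both kinds of file. IRF7 was 8.49-fold higher in replicate 2 than in replicate 1 (95% interval 8.04 to 8.97) and 10.5-fold higher in replicate 3 than in replicate 4 (9.61 to 11.4). For IRF9 the same ratios were 2.75 (2.60 to 2.90) and 5.28 (4.77 to 5.85). STAT2 had the same direction, at 1.43 (1.36 to 1.49) and 1.59 (1.47 to 1.71), although its replicate 1 (58.4 TPM) exceeded its replicate 3 (50.2 TPM). IFNAR1, IFNGR1 and JAK1 had the opposite direction in both kinds of file. The share of all detected genes with either direction was not computed, so neither direction can be called particular to these genes. Of the 12165 detected genes, 40.2% were highest in replicate 1 and 4889 were lowest in replicate 3. The GC content of IFNAR1, IFNGR1 and JAK1 is 42.3%, 40.2% and 46.2%, against a median of 49.1%. The part of GC content and length in their direction was not tested. JAK1 was 1.63-fold higher in replicate 1 than in replicate 2 and 2.29-fold higher in replicate 4 than in replicate 3. IFNGR2 differed by 1.14-fold between replicates 1 and 2, and its ratio between replicates 3 and 4 had an interval that includes 1 (0.918 to 1.14).

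A gene was called wide when its highest replicate exceeded its lowest by 2 or more on the log2(TPM + 1) scale, which is 4-fold for a high gene and asks for more than 4-fold in TPM of a low one. Of the 9 genes, 2 were wide, IRF9 and IRF7, beside 18.3% of all detected genes (25.4% with no pseudocount, where the same 2 were wide). The median range of the 9 was 1.21, and that of all detected genes 1.16. Without replicate 1 the same 2 genes were wide, while only 1.73% of detected genes were, and the median range of all detected genes was 0.63. Without replicate 4, IRF7 alone was wide, beside 16.8% of detected genes. When TPM was computed over all rows rather than protein-coding rows, the median range of all detected genes moved from 1.16 to 1.68. IFNAR2 (2.59) and TYK2 (2.15) were then wide too, beside 36.7% of detected genes. Under that scaling the range of IRF7 was 4.78 and that of IRF9 2.92. IRF7 and IRF9 were therefore wide under both scalings, whereas the calls for IFNAR2 and TYK2 depended on the scaling.

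**Figure D2:**
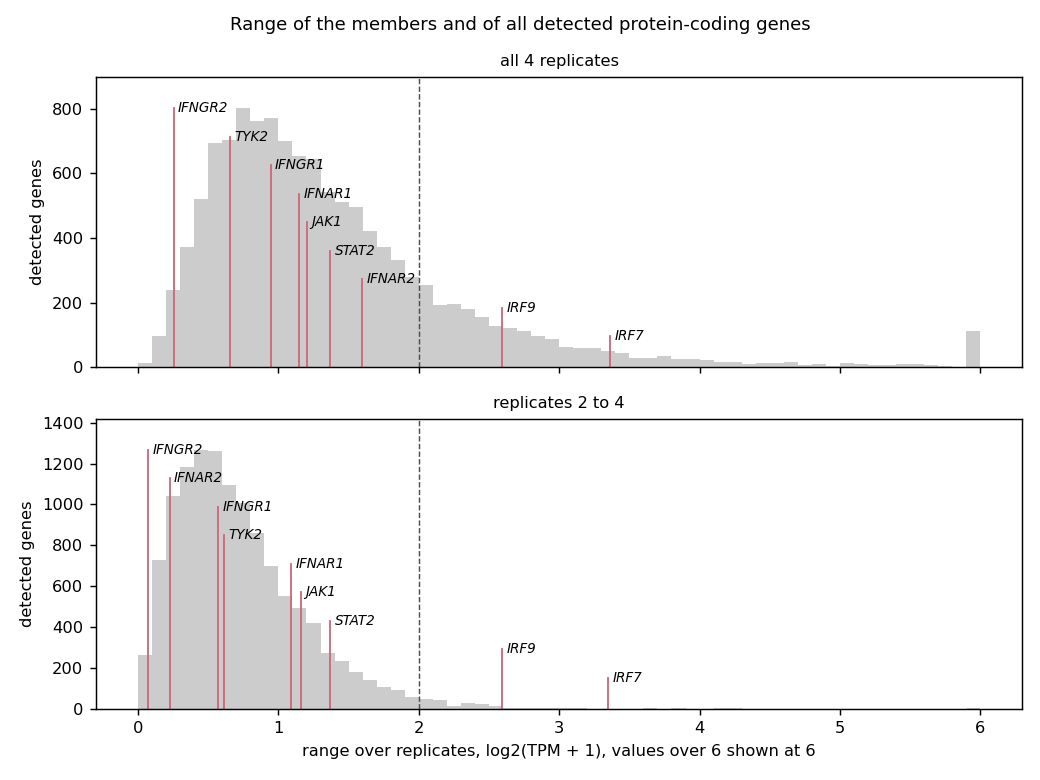
Number of detected protein-coding genes (y axis) by range over replicates on the log2(TPM + 1) scale (x axis), for all 4 replicates (top) and replicates 2 to 4 (bottom), with vertical lines at the 9 genes and a dashed line at the limit of 2. IRF9 and IRF7 stand beyond the limit in both panels, and IFNAR2 moves from 1.60 to 0.23 once replicate 1 is left out.

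The highest value fell in replicate 1 for 4 of the 9 genes (40.2% of detected genes), IFNAR1, IFNGR1, IFNGR2 and JAK1. It fell in replicate 2 for 3 genes (23.3%), IFNAR2, STAT2 and IRF9, although IFNAR2 differed little between replicates 2 and 4. It fell in replicate 3 for IRF7 alone (13.3%) and in replicate 4 for TYK2 alone (23.3%). The 9 genes thus had no common highest replicate. The map of deviations shows the same for each gene on its own mean.

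**Figure D3:**
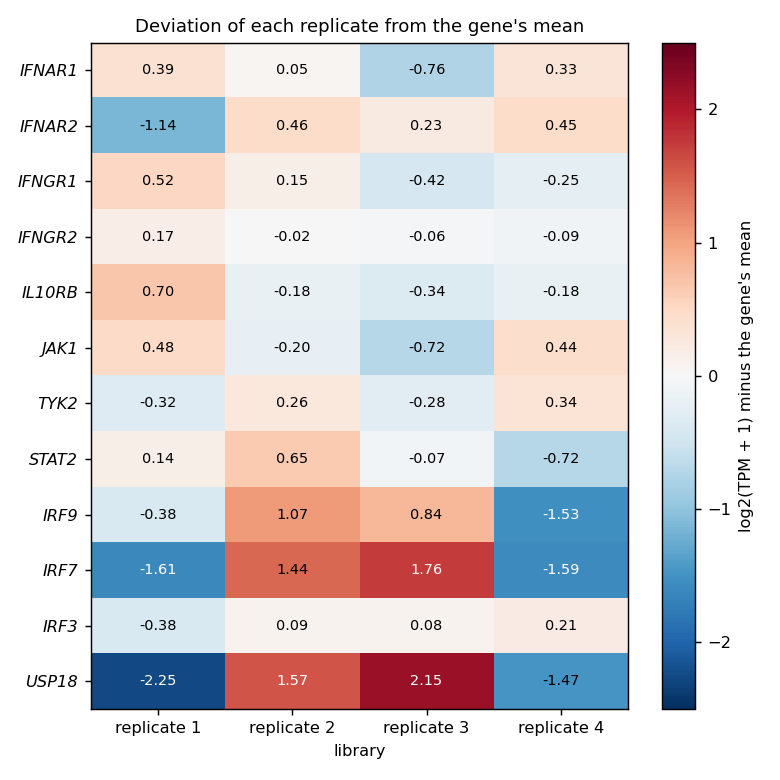
Deviation of log2(TPM + 1) in each replicate (columns) from the mean of the gene (rows), for the 9 genes and for USP18, IRF3 and IL10RB, with blue below and red above the mean. IRF9, IRF7 and USP18 are red in replicates 2 and 3 and blue in replicates 1 and 4. No other row, STAT2 included, shows this pattern in all 4 replicates.

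By mean log2(TPM + 1) the order was IFNGR1, IRF7, IRF9, STAT2, JAK1, TYK2, IFNGR2, IFNAR1 and IFNAR2. Differences within replicates were compared by flipping their signs (two-sided exact permutation test), which over 4 replicates gives no p below 0.125, so no difference could pass 0.05. Of the 8 pairs of neighbours in this order, 2 had the same direction in 4 of 4 replicates. IFNGR2 exceeded IFNAR1 by 1.35 ± 0.49 on the log2 scale (SD, n = 4, exact p = 0.125, Benjamini-Hochberg adjusted over 8 pairs 0.5), whereas the difference was -0.0065 without correction for length. IRF9 exceeded STAT2 by 0.94 ± 0.80 (exact p = 0.125, adjusted 0.5). The other neighbours changed places between replicates and did not differ beyond their spread. IFNGR1, for instance, was above IRF7 in replicates 1 and 4 and below it in replicates 2 and 3, with a difference of 0.04 ± 2.06. The differences JAK1 minus TYK2 and TYK2 minus IFNGR2 were both 0.03 on average, with an SD of 0.60 and 0.43. Without correction for length they were 0.42 and 0.92, and with annotated exon length 0.39 and 0.13.

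Partners of a complex were then compared within each replicate, where the scaling of the library cancels in the ratio of reads per kilobase but, because of the pseudocount, not fully in the difference of log2(TPM + 1). The difference IFNGR1 minus IFNGR2 was 1.53 ± 0.32 on the log2 scale (SD, n = 4), in the same direction in 4 of 4 replicates (exact sign-flip permutation p = 0.125, adjusted over 4 pairs 0.25). Per kilobase, IFNGR1 had 3.76, 3.30, 2.28 and 2.62 times the reads of IFNGR2 in replicates 1 to 4. The ligand-binding chain of the type II receptor was thus the more abundant transcript in each library.

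In the type I receptor, the ratio of IFNAR1 to IFNAR2 was 5.75, 1.24, 0.795 and 1.53. The direction was not the same in all libraries, with IFNAR1 above IFNAR2 in 3 of 4 and a difference of 0.69 ± 1.08 (exact permutation p = 0.375, adjusted 0.5). The ratio in replicate 1 had an interval of 5.06 to 6.55, which met none of the other intervals. For the kinases, the ratio of JAK1 to TYK2 was 1.81, 0.738, 0.745 and 1.10, and its interval excluded 1 in each replicate. JAK1 was the higher in 2 of 4 replicates, with a difference of 0.03 ± 0.60 (exact permutation p = 1, adjusted 1).

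STAT2 was at 0.747, 0.388, 0.274 and 0.911 of the level of IRF9 in replicates 1 to 4. The interval of replicate 4, 0.814 to 1.02, includes 1, and those of the others lie below it. The difference STAT2 minus IRF9 was -0.94 ± 0.80 (exact permutation p = 0.125, adjusted 0.25). This direction depends on the correction for length, since STAT2 has a deposited length of 4551 bp and IRF9 of 1678 bp, and without the correction the difference was 0.48.

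**Figure D4:**
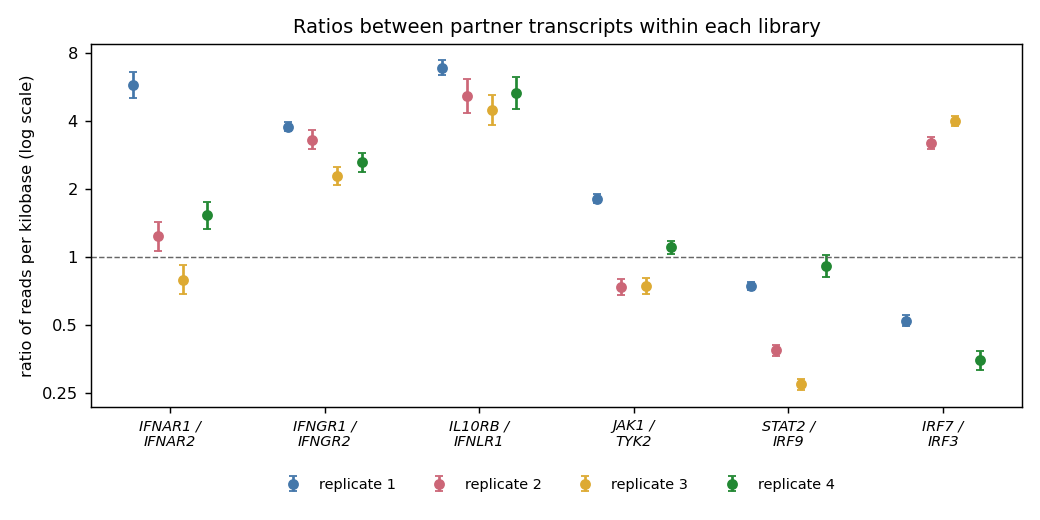
Ratio of reads per kilobase (log axis) between partner transcripts in each of the 4 replicates, with bars for the 95% Clopper-Pearson interval and a dashed line at equal levels. The ratio IFNGR1 to IFNGR2 stays above 1 in each replicate, while that of IRF7 to IRF3 lies at 0.525 and 0.350 in replicates 1 and 4 and at 3.19 and 3.98 in replicates 2 and 3.

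Further ratios were chosen after the values were seen and carry no test. The ratio of IRF7 to IRF3, a related factor that is activated by viral sensors and made at a steady level in most cells, was 0.525, 3.19, 3.98 and 0.350 in replicates 1 to 4. IRF7 was therefore the lower of the pair in replicates 1 and 4 and the higher in replicates 2 and 3. JAK1 was 7.15, 11.3, 16.7 and 13.8 times as high as JAK2, the kinase that pairs with it at the type II receptor. IFNGR1 was 8.46, 8.35, 10.3 and 5.12 times as high as IFNAR1.

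Other genes of the pathway were taken from lists drawn up by their known roles, with earlier results of these data known. The type III receptor was present, with 2 of 2 chains detected and 0 wide (18.3% of all detected genes were wide). IFNLR1, its specific chain, was at 8.95, 6.39, 6.61 and 6.21 TPM. IL10RB, the chain it shares with the IL-10 receptor family, was at 61.4, 32.8, 29.4 and 32.8 TPM. Both were highest in replicate 1, and the ratio of IL10RB to IFNLR1 was 6.86, 5.12, 4.45 and 5.28. On the scale of protein-coding TPM, the type III receptor thus stayed within 4-fold.

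Of the 7 other JAKs and STATs listed here, 5 were detected and 0 were wide on the log2(TPM + 1) scale. Since 18.3% of all detected genes were wide, a count of 0 in so few genes says little. In TPM, however, JAK2 differed 5.51-fold and STAT5A 5.69-fold between the highest and the lowest replicate, both from low levels (8.01 against 1.45 and 1.88 against 0.330 TPM). STAT3, which carries signals of IL-6 type cytokines, was at 80.2, 188, 118 and 193 TPM, a range of 1.26. STAT6, which carries those of IL-4 and IL-13, was at 111, 108, 71.9 and 96.9 TPM, a range of 0.62. Neither had the pattern of IRF7, in which replicates 2 and 3 lay above both others. Of the 6 other IRFs listed here, 4 were detected and 0 were wide, again beside 18.3% of all detected genes. IRF1, a factor induced by type II interferon, was at 33.9, 126, 90.5 and 128 TPM, a range of 1.89 that was 0.50 without replicate 1. IRF3 was at 67.9, 94.9, 94.3 and 103 TPM, a range of 0.59. IRF8, a factor of myeloid and B cells, had 0 counts in every replicate.

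All 13 inhibitors of the pathway were detected, and 1, USP18, was wide (18.3% of all detected genes). SOCS1, a low gene that blocks JAK kinases, differed 4.91-fold in TPM with a range of 1.88. USP18, a protease that binds IFNAR2 and dampens type I signalling, was at 5.70, 93.6, 141 and 10.5 TPM, a range of 4.40. PTPN1, a phosphatase that acts on JAK2 and TYK2, was at 77.9, 94.6, 78.2 and 91.7 TPM, a range of 0.28. The inhibitors together had a median range of 1.17, near the 1.16 of all detected genes. IFNAR2 and its inhibitor USP18 differed in pattern, since IFNAR2 was within 0.23 over replicates 2 to 4 while USP18 had a range of 3.62 over the same replicates.

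As a list, the type I targets varied far more than the receptors. All 30 type I targets on the list were detected, 25 of them were wide (18.3% of all detected genes), and their median range was 3.83. Without replicate 1, 23 were wide (1.73% of all detected genes), with a median range of 3.0. Because earlier results of these data were known when the list was drawn up, these shares describe the listed genes and are no independent test. Of the 30, 17 had their highest value in replicate 2 and 13 in replicate 3 (23.3% and 13.3% of detected genes), and their median TPM was 11.5, 136, 128 and 16.4 in replicates 1 to 4. ISG15, a ubiquitin-like antiviral protein, was at 87.4, 2711, 3177 and 179 TPM. IFITM1, which hinders the entry of viruses, was at 342, 3067, 2362 and 501 TPM. The widest were IFI6 (range 7.60), IFI27 (7.35) and MX2 (6.85). MX2, an antiviral GTPase, had 15, 2349, 3459 and 3 counts. Not all targets had the pattern of IRF7. SAMD9 and SAMD9L, named after their values were seen, were higher in replicate 4 than in replicate 3, and SAMD9 was at 125, 126, 33.6 and 49.4 TPM.

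Of the 11 type II targets, 9 were detected, several of them only through the replicates in which they were high. All 9 were wide over the 4 replicates (18.3% of all detected genes). Without replicate 1 only CXCL10 had a range of 2 or more (1.73% of all detected genes). Their median range was then 1.04, against 0.63 for all detected genes. CXCL10, a chemokine, was at 0, 3.96, 13.1 and 0.110 TPM, and CXCL11, a related chemokine, at 0.0256, 1.87, 4.30 and 0.669. GBP1, a guanylate-binding protein of cell defence, was at 1.20, 25.2, 21.7 and 14.5 TPM, and GBP4 at 2.34, 17.2, 19.5 and 10.9. GBP2 of the same family went the other way, at 20.2, 2.0, 1.35 and 5.20. In these libraries, members of 1 family thus had opposite orders. WARS, a tRNA synthetase induced by type II interferon, was at 102, 564, 386 and 278 TPM. ICAM1, an adhesion molecule, was at 4.83, 29.01, 13.6 and 15.6, and CIITA, the regulator of MHC class II genes, at 1.06, 8.76, 5.09 and 8.33. IDO1, an enzyme of tryptophan breakdown, was at 0.0852, 6.54, 3.63 and 1.81. For GBP1, GBP4, GBP2, IDO1, CIITA, ICAM1 and WARS, replicate 1 was at the extreme, and without it their ranges lay between 0.68 and 1.43.

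**Figure D5:**
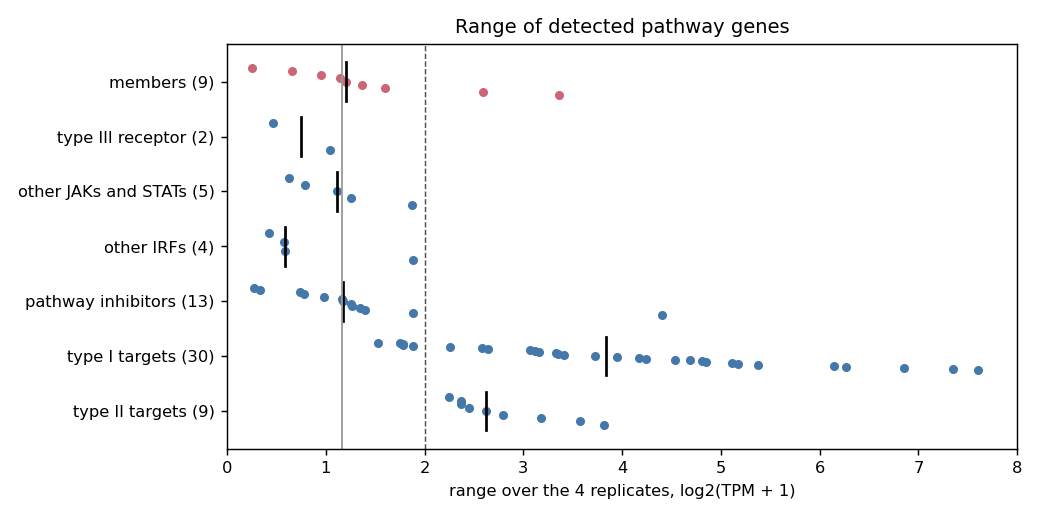
Range over the 4 replicates on the log2(TPM + 1) scale (x axis) of each detected gene of the 9 and of the pathway lists (rows, number of genes in parentheses), with a black bar at the median of each row, a grey line at 1.16, the median of all detected genes, and a dashed line at the limit of 2. The type I targets reach 7.60, and in the upper 5 rows IRF9, IRF7 and USP18 are the plotted genes beyond the limit.

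The interferons themselves were low. Of 21 interferon genes, 3 were detected (IFNL1, IFNL3 and IFNE), the first pair through replicates 2 and 3 alone, and 10 had 0 counts in all replicates, among them IFNG, the only type II interferon, which was named after its counts were seen. IFNL1 had 0, 13, 47 and 1 counts in replicates 1 to 4, and IFNL3 had 0, 10, 25 and 0. IFNL2 had 0, 12, 10 and 0 counts, and since IFNL2 and IFNL3 are nearly identical, the split of reads between them is uncertain. IFNB1, also named after its counts were seen, had 0, 3, 15 and 0. IFNL1, IFNL2, IFNL3 and IFNB1 thus had 0 counts in replicate 1, the deepest library, and their counts above 3 were in replicates 2 and 3. IFNE, an interferon of epithelia that was likewise named after its counts were seen, had 77, 13, 6 and 24 counts and was the one ligand with counts above 3 in each replicate. A count of 0 allows up to 3 counts by counting error, so absence of these transcripts in replicates 1 and 4 cannot be stated.

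Finally, the genes whose pattern over the 4 replicates was most like that of the 2 wide factors were listed, by the root mean square difference of log2(TPM + 1) after each gene was centred on its own mean. Nearest to IRF7 were TRIM22 (0.20), IFIT3 (0.23) and OAS1 (0.28). TRIM22 was at 20.4, 153, 179 and 24.1 TPM and IFIT3 at 39.2, 500, 531 and 58.2 TPM. Nearest to IRF9 were TMEM27 (0.27), IGFL1 (0.27) and LAP3 (0.28). LAP3, an aminopeptidase, was at 59.2, 144, 125 and 37.8 TPM. The lists of the 2 factors shared no gene, but each holds only 3 of 12165 detected genes, so this says little about likeness. The difference between IRF7 and IRF9 was 0.79, larger than that of IRF7 to USP18 (0.39). Even so, only 0.411% of detected genes were nearer to IRF7 than IRF9 was. Only 2.98% were nearer to IRF9 than IRF7 was. STAT2 was 0.69 from IRF9 and 1.40 from IRF7. With 4 samples, such likeness is a description of these libraries.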

How the data were processed

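Total RNA of 4 replicates of untreated HaCaT was sequenced. The authors deposited, for each replicate, raw read counts and a length for each gene, and beside them the authors gave RPKM for replicates 1 and 2 and TPM for replicates 3 and 4. The deposited RPKM and TPM values were recovered from the counts and served as a check of the lengths only. The submitters' processing notes name HISAT2, HISAT, TopHat2, Bowtie2 and hg19 without roles. The counting program, annotation and strand setting are not given in the sources used here.

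From these counts and lengths, TPM over protein-coding rows was computed in each replicate. Depth was 17056035 to 73082279 counts per replicate. Differences were taken on the log2(TPM + 1) scale, which understates the change of low genes. Intervals are exact Poisson for a level and Clopper-Pearson for a ratio (95%). Differences within replicates were tested by an exact permutation of their signs (two-sided, with Benjamini-Hochberg adjustment). GC content and exon lengths came from GENCODE release 29, found for 97.7% of detected genes. The 9 genes and the lists were chosen with earlier results of these data known. Named were all 9 genes and the 3 genes most like each wide factor. From each pathway list, the 2 highest by mean TPM were named. Each wide gene was also named in pathway lists of up to 15 genes, and the 3 widest in longer ones. The lists of cell type markers were not under this rule. Some genes of the pathway are not reported here and were left out of the lists. Genes outside this rule (JAK2, STAT5A, SOCS1, SAMD9, SAMD9L, IRF8, IFNG, IFNB1, IFNE, KRT14, PERP, ITGB4, CD14 and PTPRC) were named after their values were seen. Alternatives were other pseudocounts (0.1 or 0), scalings, lengths and range limits, centring in 20 bins of GC content, and leaving out each replicate; centring in bins of length and the comparison within each deposited unit were chosen after seeing the data. Scripts were tested on simulated data. Calculations ran in Python 3.11.15 with SciPy 1.17.1, NumPy 2.4.6 and pandas 2.3.3, and plots in matplotlib 3.10.9.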

Additional observations from a re-analysis of the deposited data

Results flagged for a closer look

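Of 13 sets of 4 values tested, 1 held a replicate far from the others, where chance alone would give 0.65 (1 in 20). In IFNAR2, replicate 1 was the lowest on the log2(TPM + 1) scale, and its gap to the nearest replicate was 0.859 of the whole range of the 4. Replicate 1 was at 3.37 TPM and the others between 10.3 and 12.2 TPM. The range of IFNAR2 was 1.62 after centring within bins of GC content and 1.41 after centring within bins of gene length. Other values that set replicate 1 apart are its share of counts in protein-coding genes (76.1%) and its relation to GC content, and their part in the value of IFNAR2 was not tested further.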

How the results depend on the processing

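Of the 9 genes, 2 were wide under other pseudocounts, scaling to the upper quartile, no correction for length, annotated exon length, centring in bins of GC content or of length, and no filter on low values. In these settings, 11.7% to 25.4% of all genes considered were wide. The number was 4 with TPM over all rows (36.7% of all detected genes), 6 with a 2-fold limit (59.1%) and 1 with an 8-fold limit (5.84%). It lay between 1 and 2 when each replicate was left out (1.73% to 16.8%). The range of single genes moved by less than 1 SD in 97 of 108 recomputed values and by more in 11. Without correction for length, IRF9 minus STAT2 was -0.48, STAT2 minus IRF9 was 0.48 and IFNGR2 minus IFNAR1 was -0.0065, since the 3 differences then carry the lengths of the genes. With annotated exon length, IFNGR1 minus IRF7 was -0.43. When each replicate was left out in turn, IFNGR1 minus IRF7 lay between -0.67 and 0.77, IRF7 minus IRF9 between -0.19 and 0.52, JAK1 minus TYK2 between -0.23 and 0.19, and TYK2 minus IFNGR2 between -0.11 and 0.20, and the cause of these turns was not tested. The differences kept their direction in 85 of 96 recomputed values for neighbours and in 45 of 48 for partners. No comparison between groups, paired or not, was possible because there is only 1 group. The tests of differences paired genes within each replicate. With 4 replicates the tests of differences had no p below 0.125, and depth limits chiefly the interferon genes, with most counts at or under 3.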

Other observations

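Among the genes that were not wide, 2 likenesses were noticed after the values were seen and carry no test. IFNAR1 and JAK1 had a root mean square difference of 0.15 over the 4 centred log2(TPM + 1) values, and 2.38% of detected genes were nearer to IFNAR1 than JAK1 was. Both are long and had their lowest value in replicate 3, where long genes were lower. The part of length in this likeness was not tested. IFNAR2 and IRF1 had a difference of 0.13, with 1.31% of detected genes nearer to IFNAR2. Like IFNAR2, IRF1 was lowest in replicate 1, as were 4556 of the 12165 detected genes. The chains of the type I receptor were less alike, with a difference of 0.94 between IFNAR1 and IFNAR2.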
